A study of Mus musculus with 35 samples.

Results

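The 10 genes described here encode the interleukin-1 (IL-1) branch of innate immunity and 2 lytic forms of cell death that release its products: Il1b, Il1rn, Il1r1, Nlrp3, Pycard, Casp1, Casp4, Gsdmd, Ripk3 and Mlkl. They were chosen by symbol, with earlier results of these data known, and all 10 are among the 32544 genes of the deposited count tables. The data are from the hippocampi of adult male C57BL/6JOlaHsd mice that received kainic acid through a cannula over the amygdala (IAKA, here KA) or PBS by the same route, and that were killed 24 hours or 2 weeks later. Kainic acid, a glutamate receptor agonist, induces status epilepticus in this model, lorazepam was given after it to lessen the seizures, and mice of this model go on to have spontaneous seizures, so that the agonist, the seizures and the drug cannot be told apart here. Whether the PBS mice also had lorazepam is not given in the sources used here. RNA of a hippocampus was sequenced as total RNA (input), as RNA pulled down with an antibody against N6-methyladenosine (m6A), or as both. Every library is labelled as coming from 1 mouse.

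An m6A library reads transcripts in proportion to both their abundance and their methylation, so a higher level there can be either, and only the ratio to the input library separates them. The 19 m6A libraries came from 5 KA and 3 PBS mice at 24 hours and from 6 KA and 5 PBS mice at 2 weeks, with total counts from 1652933 to 34564536 (median 15291875). Input libraries were used where they held 100000 or more counts, which left 13 with totals from 3057578 to 12694434 (median 5498360). These were 3 KA libraries and 1 PBS library at 24 hours, and 6 KA and 3 PBS libraries at 2 weeks. In the other 3 input libraries none of the 10 genes had a count. KA mouse 8 at 24 hours and KA mice 6, 7 and 9 at 2 weeks come from a deposited table whose PBS libraries were all under 100000 counts. All used PBS input libraries come from another table, so treatment and deposited table cannot be fully told apart in input.

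Inflammasomes are protein platforms assembled by a sensor such as NLRP3 and the adaptor ASC (gene Pycard), on which caspase-1 is activated. Caspase-1 matures the cytokine IL-1β and, like caspase-11 (gene Casp4 in the mouse), cuts gasdermin D into a pore-forming fragment that lyses the cell. IL-1β acts through the receptor IL-1R1, which the antagonist encoded by Il1rn blocks, and necroptosis is a separate lytic death in which the kinase RIPK3 phosphorylates MLKL. In brain, microglia are a known source of IL-1β and a pathway known to promote seizures runs through IL-1R1.

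Levels are given as counts per 1000000 counts of the library (CPM), and differences as log2 fold changes of KA over PBS from edgeR, a count model fitted to all genes, with the standard error (SE) and with p-values adjusted over all genes tested. None of the 10 genes passed an adjusted p of 0.05 in any of the 4 comparisons of KA with PBS. The smallest adjusted p of a member was 0.335, for Mlkl in m6A libraries at 24 hours. Among all genes, 0.178% were called in m6A libraries at 24 hours and 0.00573% at 2 weeks, and 0% in input at either time, so that few genes of any kind passed. An unadjusted p under 0.05 was reached by 1 member in m6A at 24 hours (Mlkl, against 6.95% of all genes), by 0 at 2 weeks (4.07%), by 1 in input at 24 hours (Nlrp3, 9.23%) and by 2 in input at 2 weeks (Il1r1 and Nlrp3, 8.16%). Mlkl in m6A and Nlrp3 in input passed the filter on low counts only through their KA libraries. Voom with sample quality weights called 2 of 9 members, Il1r1 and Mlkl, in m6A libraries at 24 hours and 0 in the other comparisons. In m6A at 24 hours it called 1360 of all 17440 genes, so a call was far more common there than with edgeR. DESeq2 called 0 in both m6A comparisons and 0 of the 6 members to which it gave an adjusted p in input at 24 hours, where Il1b and Nlrp3 had none. It gave no adjusted p for any of the 8 members tested in input at 2 weeks, so it says nothing of calls there. The plots of levels by library show how widely the mice of a group were spread.

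**Figure D1:**
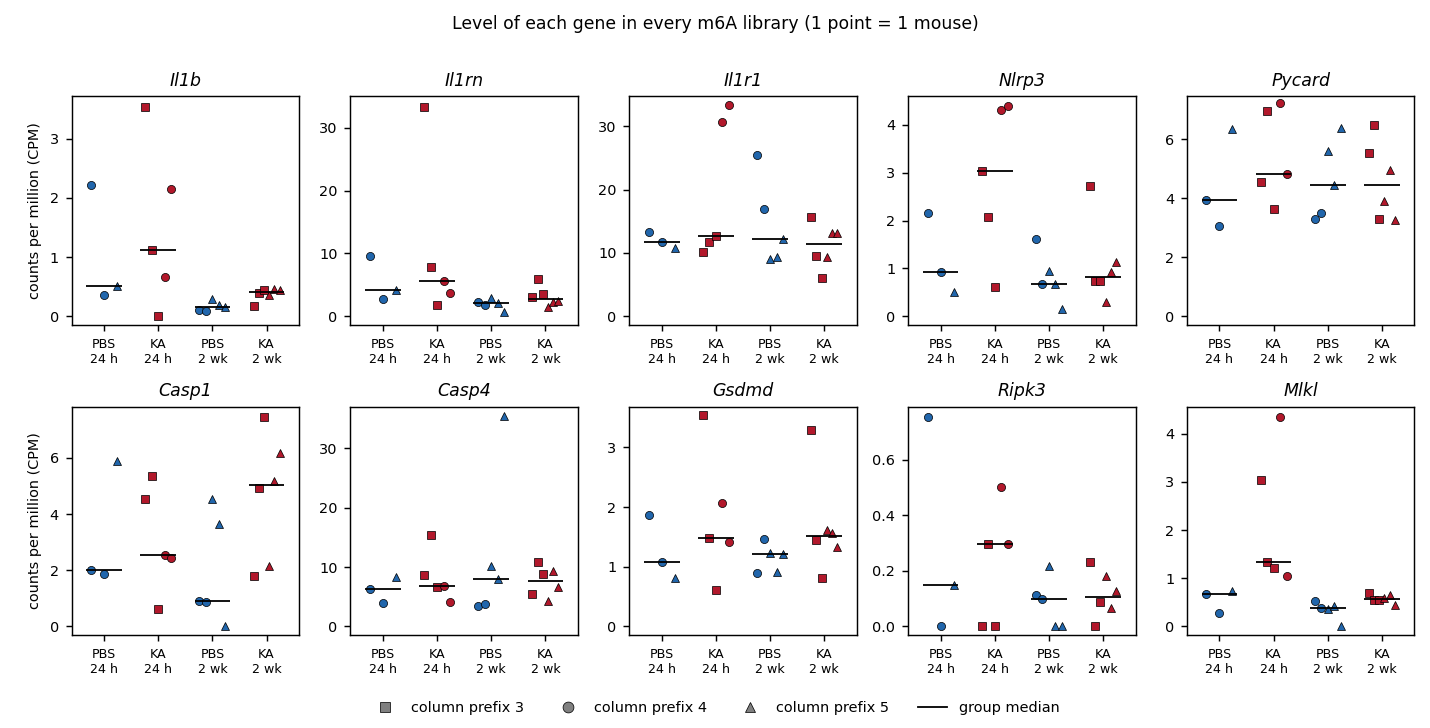
Level of the 10 genes in CPM (vertical axes, linear, scaled per gene) in the 19 m6A libraries. Each point is 1 mouse, red for KA and blue for PBS, its shape gives the number at the start of the library's column name, and the line is the group median. The 5 KA points of Mlkl at 24 hours all lie above the 3 PBS points, while the groups of the other 9 genes overlap.

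**Figure D2:**
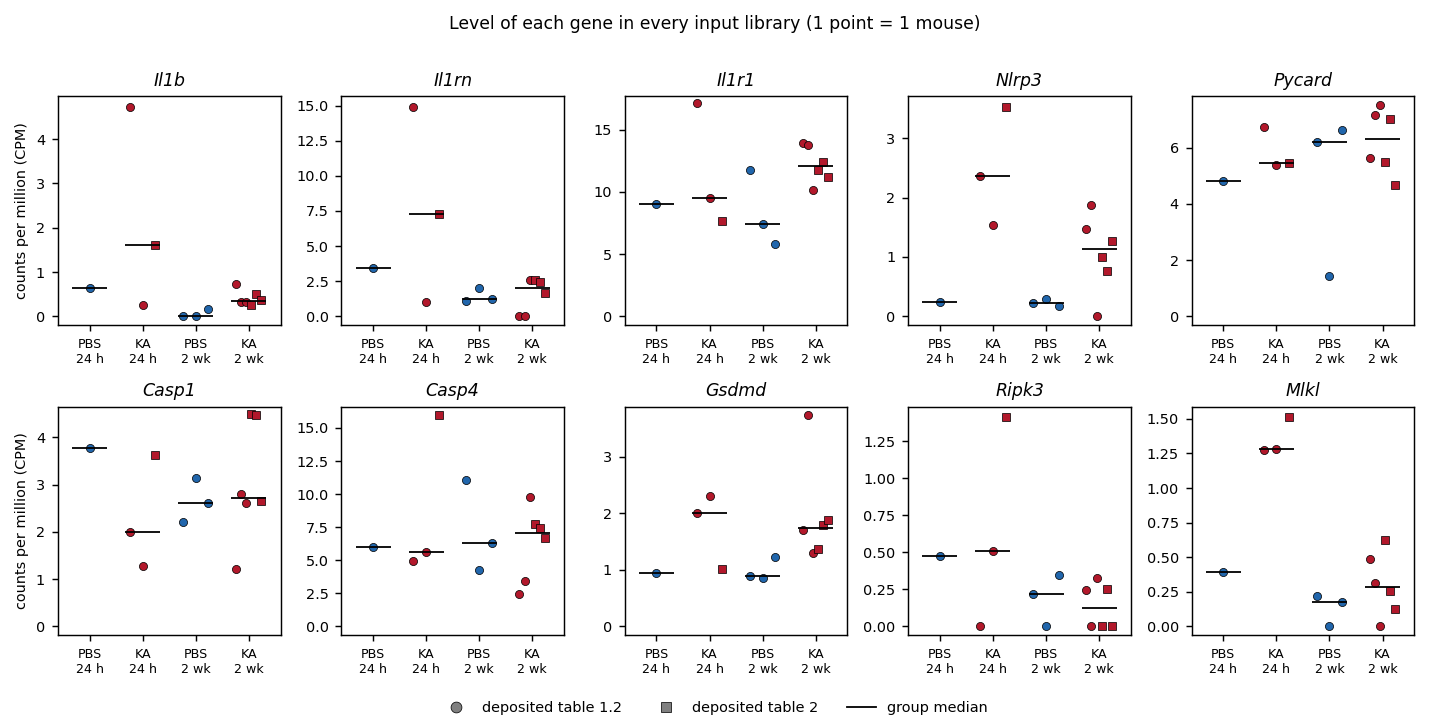
Level of the 10 genes in CPM (vertical axes, linear, scaled per gene) in the 13 input libraries with 100000 or more counts, drawn in the same way, with the shape giving the deposited table. At 24 hours PBS is a single mouse. At 2 weeks the 6 KA points of Il1b and of Gsdmd lie above the 3 PBS points.

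Il1b, the gene of the cytokine, was a low transcript. In m6A libraries at 24 hours it lay at 3.54, 0.656, 1.11, 2.15 and 0 CPM in KA mice 67, 79, 8, 97 and 98, and at 0.517, 2.22 and 0.358 CPM in PBS mice 1, 71 and 73. The groups overlapped fully, and the library of mouse 98, with no count of a total of 1652933, still allows a level of up to 1.81 CPM (3 counts, counting error only). The fitted difference was 0.46 (SE 0.69, adjusted p = 0.928), and it ran from 0.094 without KA mouse 67 to 1.60 without PBS mouse 71. In whole hippocampus, fewer cells of a type and less RNA per cell cannot be told apart, for Il1b as for the other genes.

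At 2 weeks Il1b in m6A libraries ran from 0.174 to 0.458 CPM over 6 KA mice (median 0.415) and from 0.0975 to 0.288 CPM over 5 PBS mice (median 0.152). KA mouse 42, at 0.174 CPM, was below PBS mice 2 and 3, and the other 5 KA mice were above every PBS mouse. The fitted difference was 1.23 (SE 0.66, adjusted p = 0.949). In input libraries at 2 weeks the 6 KA mice held 1 to 4 counts each (0.25 to 0.733 CPM), and of the PBS mice only mouse 4 held a count (1 count, 0.175 CPM). All KA libraries were above all PBS libraries, as was true of 2.36% of all genes tested. The ratio of the summed counts, 14 in KA against 1 in PBS, was 5.63 after scaling to the summed totals, with a 95% exact counting interval of 0.857 to 238, so a difference was not detectable at this depth. Such an interval covers counting error only and leaves out the spread between mice. It was computed only where the PBS libraries of a comparison held 1 to 3 counts of a gene in all, a choice that takes genes low in PBS. Il1b passed the filter on low counts in input only through its KA libraries, as Nlrp3 and Gsdmd did. In m6A libraries Il1b and Mlkl passed it only through KA libraries. In input at 24 hours the KA mice 67, 8 and 98 lay at 4.73, 1.61 and 0.256 CPM and PBS mouse 1 at 0.63 CPM, with overlap.

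Il1rn, which encodes the IL-1 receptor antagonist, was set apart by a single mouse. Its m6A level at 24 hours was 33.3 CPM in KA mouse 67 and 5.56, 7.79, 3.71 and 1.82 CPM in mice 79, 8, 97 and 98, against 4.13, 9.61 and 2.79 CPM in PBS mice 1, 71 and 73. Apart from mouse 67 the KA mice lay within or below the PBS range. The fitted difference was 0.82 (SE 0.66, adjusted p = 0.85), and without mouse 67 it was -0.09.

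The input library of mouse 67 also held the highest Il1rn level, 14.9 CPM, against 7.26 and 1.02 CPM in KA mice 8 and 98 and 3.47 CPM in PBS mouse 1. Mouse 67 was in addition the highest of the 24-hour mice for Il1b in both kinds of library. At 2 weeks the Il1rn groups overlapped in both kinds of library, and in input KA mice 21 and 42 had no Il1rn count at all, where 3 counts would have been 0.733 and 0.937 CPM. The fitted differences at 2 weeks were 0.72 (SE 0.55) in m6A and 0.22 (SE 0.92) in input, and neither passed the test.

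Il1r1, the signalling receptor of IL-1, was the member with the most reads in m6A libraries of KA mice at 24 hours, 1629 counts in all. Its m6A level at that time was 30.7 CPM in KA mouse 79 and 33.3 CPM in KA mouse 97, and 10.1, 11.7 and 12.7 CPM in KA mice 67, 8 and 98. The PBS mice 1, 71 and 73 lay at 10.7, 13.3 and 11.7 CPM. Mice 79 and 97 were thus far above all others, and the other 3 KA mice lay in or just below the PBS range.

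The split followed the libraries' names. Column names of m6A libraries begin with 3, 4 or 5, and the labels do not say what the number stands for. Mice 79 and 97 are the KA mice with a 4 at 24 hours and the other 3 carry a 3, a number that only KA libraries have. Among libraries with a 4 the PBS mice 71 and 73 were at 13.3 and 11.7 CPM at 24 hours, and the PBS mice 50 and 78 were at 25.4 and 17 CPM at 2 weeks. Over all libraries Il1r1 differed by 0.72 (SE 0.40, adjusted p = 0.773), and by 0.44 without KA mouse 97. With the prefix as a block the difference was 0.95 (SE 0.30, adjusted p = 0.29), and within prefix 4 alone, with 2 mice a side, it was 1.24 (SE 0.16, adjusted p = 0.0185). Voom with sample quality weights also called it, at 0.99 (SE 0.25, adjusted p = 0.0175). Over all genes, 356 of 16903 were called within prefix 4 and 1360 of 17440 with voom.

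In input libraries at 2 weeks Il1r1 ran from 10.1 to 13.9 CPM over the 6 KA mice (median 12.1) and stood at 11.8, 7.41 and 5.77 CPM in PBS mice 2, 3 and 4. The KA mice were close together, and of the PBS mice only mouse 2 reached them. The difference was 0.58 (SE 0.26, unadjusted p = 0.0406, adjusted p = 0.593). In m6A libraries of the same time it was -0.33 (SE 0.32), and the sign turned to 0.24 with the prefix as a block and to 0.30 within prefix 5. In input at 24 hours the KA mice 67, 8 and 98 lay at 17.1, 7.67 and 9.47 CPM and PBS mouse 1 at 9.06 CPM.

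Nlrp3, the inflammasome sensor, had the largest fitted difference of the members in input libraries at 24 hours. KA mice 67, 8 and 98 stood at 2.36, 3.53 and 1.54 CPM there (13, 35 and 6 counts), and PBS mouse 1, the deepest input library, at 0.236 CPM (3 counts). All 3 KA libraries were above the PBS library, a pattern that 10.9% of all genes tested shared. The difference was 3.63 (SE 1.34, unadjusted p = 0.0171, adjusted p = 0.445). As a ratio of summed counts, scaled in the same way, it was 11.8 with a 95% exact counting interval of 3.84 to 59.1. This interval leaves out the spread between mice in both groups, and only 1 PBS mouse was deep enough. The fit assumes that this lone PBS library varies like the other groups. Nlrp3 passed the filter on low counts in input only through its KA libraries, so its entry into the input tests at both times depended on their level. The median of all genes in that comparison was itself 0.27.

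Input libraries at 2 weeks gave Nlrp3 as 1.47, 1.87, 0, 0.998, 0.767 and 1.26 CPM in KA mice 21, 42, 5, 6, 7 and 9 and 0.222, 0.285 and 0.175 CPM in PBS mice 2, 3 and 4, each of which held 1 count. Of the 6 KA mice 5 were above every PBS mouse, and the sixth, mouse 5, had no count of 3057578. The difference was 2.19 (SE 0.90, unadjusted p = 0.0286, adjusted p = 0.589), and the ratio of scaled counts was 4.83 with an interval of 1.53 to 24.5. That interval, too, covers counting error only and leaves out the spread between KA mice, from 0 to 1.87 CPM.

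The m6A libraries gave Nlrp3 at 24 hours as 3.03, 4.31, 2.08, 4.38 and 0.605 CPM in KA mice 67, 79, 8, 97 and 98 and as 0.517, 2.15 and 0.93 CPM in PBS mice 1, 71 and 73. Mice 67, 79 and 97 were above the PBS range and mice 8 and 98 were not. The difference was 1.29 (SE 0.68, adjusted p = 0.749) and it stayed between 0.94 and 1.92 when any single library was left out. At 2 weeks it was 0.44 (SE 0.55), with KA mouse 42 at 2.72 CPM and the other 5 KA mice between 0.301 and 1.13 CPM, and it was -0.09 without mouse 42.

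Pycard, the gene of the adaptor ASC, was among the steadier members. At 24 hours its m6A level ran from 3.63 to 7.25 CPM in KA mice and from 3.08 to 6.35 CPM in PBS mice, with a difference of 0.37 (SE 0.35). At 2 weeks KA mice lay between 3.28 and 6.49 CPM and PBS mice between 3.31 and 6.38 CPM, with a difference of 0.04 (SE 0.29). In input at 24 hours the 3 KA mice, at 5.38 to 6.73 CPM, were above the PBS mouse at 4.81 CPM, the pattern shared by 10.9% of all genes tested. Among the 2-week input libraries PBS mouse 3 was low, at 1.43 CPM, while PBS mice 2 and 4 were inside the KA range of 4.66 to 7.52 CPM. No Pycard comparison passed the test.

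Casp1, the gene of the inflammasome protease, had the largest m6A difference of the members at 2 weeks. KA mice 21, 42, 5, 6, 7 and 9 stood at 2.16, 1.79, 4.92, 7.46, 5.17 and 6.18 CPM, and PBS mice 2, 3, 4, 50 and 78 at 4.54, 3.66, 0, 0.902 and 0.877 CPM. The groups overlapped, and the 3 low PBS mice were mouse 4, with no count of 6579414, and mice 50 and 78, the pair with prefix 4. The difference was 1.30 (SE 0.66, unadjusted p = 0.0637, adjusted p = 0.949), and within prefix 5 it was 0.73 (SE 0.84). The input difference at 2 weeks was 0.24 (SE 0.45), with KA mice at 1.22 to 4.49 CPM and PBS mice at 2.22 to 3.14 CPM.

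At 24 hours Casp1 showed no shift in m6A libraries, with KA mice at 0.605 to 5.34 CPM, PBS mice at 1.86 to 5.9 CPM and a fitted value of 0.05 (SE 0.79) whose sign changed between settings. In input all 3 KA mice, at 1.28 to 3.63 CPM, were below PBS mouse 1 at 3.78 CPM, as was true of 33.1% of all genes tested. That difference was -0.30 (SE 0.66).

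Casp4, the mouse gene of caspase-11, lies beside Casp1 on chromosome 9, where 1567 bases separate them (GRCm38, Casp1 at 5298517 to 5307281 and Casp4 at 5308849 to 5336791). The counter that assigned the reads is not named in the sources used here, so reads shared between these related genes may have been split. In m6A libraries at 24 hours Casp4 was at 8.59, 6.88, 15.4, 4.08 and 6.65 CPM in KA mice 67, 79, 8, 97 and 98, and at 8.27, 6.24 and 4.01 CPM in PBS mice 1, 71 and 73. Mouse 8 was the highest, and it was also the highest in input, at 15.9 CPM against 4.91 and 5.63 CPM in mice 67 and 98 and 5.99 CPM in PBS mouse 1. The m6A difference was 0.54 (SE 0.65), and -0.09 without mouse 8.

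Mouse 8 stood apart in markers of blood-borne cells too. The summed level of 10 monocyte and neutrophil markers was 261.8 CPM in its m6A library and 174.9 CPM in its input library, while it ran from 34.4 to 41.2 CPM in the other KA m6A libraries and from 29.9 to 57.5 CPM in the PBS m6A libraries of that time. In other input libraries at 24 hours it was 27.6 and 38.4 CPM (KA) and 48.5 CPM (PBS). Its input library held the highest sums of endothelial markers, 1214 CPM, and of blood markers, 38.7 CPM, of all input libraries. In m6A libraries its endothelial sum, 301.5 CPM, was the lowest of the KA mice at 24 hours. Its libraries were low in markers of astrocytes, neurons and oligodendrocytes. The summed level of 6 astrocyte markers was 996.1 CPM in its m6A library, beside 3546 to 5058 CPM in the other KA mice of that time, and 810.8 CPM in its input library, beside 3810 and 4292 CPM. Its m6A library held the lowest sum of neuron markers, 1166 CPM, and its input library the lowest sum of oligodendrocyte markers, 689.5 CPM, of all libraries of the kind. The part of these differences in its Casp4 level was not tested.

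At 2 weeks Casp4 in m6A libraries was at 35.4 CPM in PBS mouse 4, and at 3.46 to 10.2 CPM in the other PBS mice and 4.27 to 10.9 CPM in the KA mice. The library with this high value was the one without a Casp1 count, and the input library of the same mouse held Casp4 at 6.29 CPM and Casp1 at 2.62 CPM. The difference of -0.60 (SE 0.52) became 0.33 without mouse 4. In input at 2 weeks it was -0.16 (SE 0.48).

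Gsdmd, the gene of the pore-forming protein gasdermin D, was higher in every KA mouse than in every PBS mouse in input libraries at 2 weeks, as were 2.36% of all genes tested. KA mice 21, 42, 5, 6, 7 and 9 were at 1.71, 3.75, 1.31, 1.37, 1.79 and 1.89 CPM and PBS mice 2, 3 and 4 at 0.888, 0.855 and 1.22 CPM. KA mice 6, 7 and 9 come from the deposited table without a used PBS library. Gsdmd, too, passed the filter on low counts in input only through its KA libraries. The gap between the lowest KA and the highest PBS mouse was small, and the counts were 4 to 15 in KA and 3 to 7 in PBS libraries. The difference was 0.96 (SE 0.51, unadjusted p = 0.0779, adjusted p = 0.653), and 0.71 without mouse 42.

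In m6A libraries at 2 weeks the Gsdmd groups overlapped, with KA mice between 0.819 and 3.3 CPM, PBS mice between 0.902 and 1.46 CPM and a difference of 0.61 (SE 0.39, adjusted p = 0.949). At 24 hours the m6A difference was 0.50 (SE 0.48), with overlap. In input at 24 hours KA mice 67, 8 and 98 were at 2, 1.01 and 2.3 CPM and PBS mouse 1 was lower, at 0.945 CPM (a pattern of 10.9% of all genes tested), with a difference of 1.14 (SE 0.77, adjusted p = 0.698).

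Ripk3, the necroptosis kinase, was close to the limit of detection and was not tested in any comparison. It summed to 24 and 23 counts over the KA and PBS m6A libraries at 24 hours, and to 17 and 7 counts at 2 weeks. Its highest m6A level was 0.753 CPM, in PBS mouse 71. In input, KA mouse 8 held 14 of the 16 counts of the KA libraries at 24 hours. At 2 weeks 4 counts in KA against 3 in PBS gave a scaled ratio of 0.536 with an interval of 0.0908 to 3.66, so neither a rise nor a fall was detectable.

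Mlkl, the executioner of necroptosis, was the one member whose m6A groups did not overlap at 24 hours. It was at 3.03, 4.35, 1.34, 1.04 and 1.21 CPM in KA mice 67, 79, 8, 97 and 98 and at 0.738, 0.681 and 0.286 CPM in PBS mice 1, 71 and 73. Every KA mouse was above every PBS mouse, as for 2.53% of all genes tested, but mice 67 and 98 held only 6 and 2 counts while mouse 79 held 139. The difference was 1.92 (SE 0.61, unadjusted p = 0.00528, adjusted p = 0.335). Mlkl passed the filter on low counts in m6A libraries only through its KA libraries, so its entry into every m6A test depended on their level.

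Leaving out any single library kept the Mlkl difference between 1.42 and 2.13, the lowest without mouse 79. It was 1.94 (SE 0.65, adjusted p = 0.338) with the prefix as a block and 2.33 (SE 0.75, adjusted p = 0.163) within prefix 4. DESeq2 gave 1.95 (SE 0.58, adjusted p = 0.0603), and voom with sample quality weights gave 1.62 (SE 0.37, adjusted p = 0.00793), which is a call. Voom called 1360 of all 17440 genes in that comparison.

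In input libraries Mlkl was too low to be tested. At 24 hours KA mice 67, 8 and 98 were at 1.27, 1.51 and 1.28 CPM (7, 15 and 5 counts) and PBS mouse 1 at 0.394 CPM (5 counts). Every KA mouse was above the PBS mouse, a pattern of 10.9% of the genes that were tested in that comparison. These animals are also part of the m6A comparison, so the input values are not a separate set of mice. At 2 weeks 11 counts over the KA libraries stood against 2 over the PBS libraries, a scaled ratio of 2.21 with an interval of 0.483 to 20.5. In m6A libraries at 2 weeks KA mice ran from 0.441 to 0.694 CPM (median 0.58) and PBS mice from 0 to 0.526 CPM (median 0.39). That difference was 0.75 (SE 0.50, adjusted p = 0.949), and 0.315% of all genes, but no member, had all KA above all PBS libraries there.

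**Figure D3:**
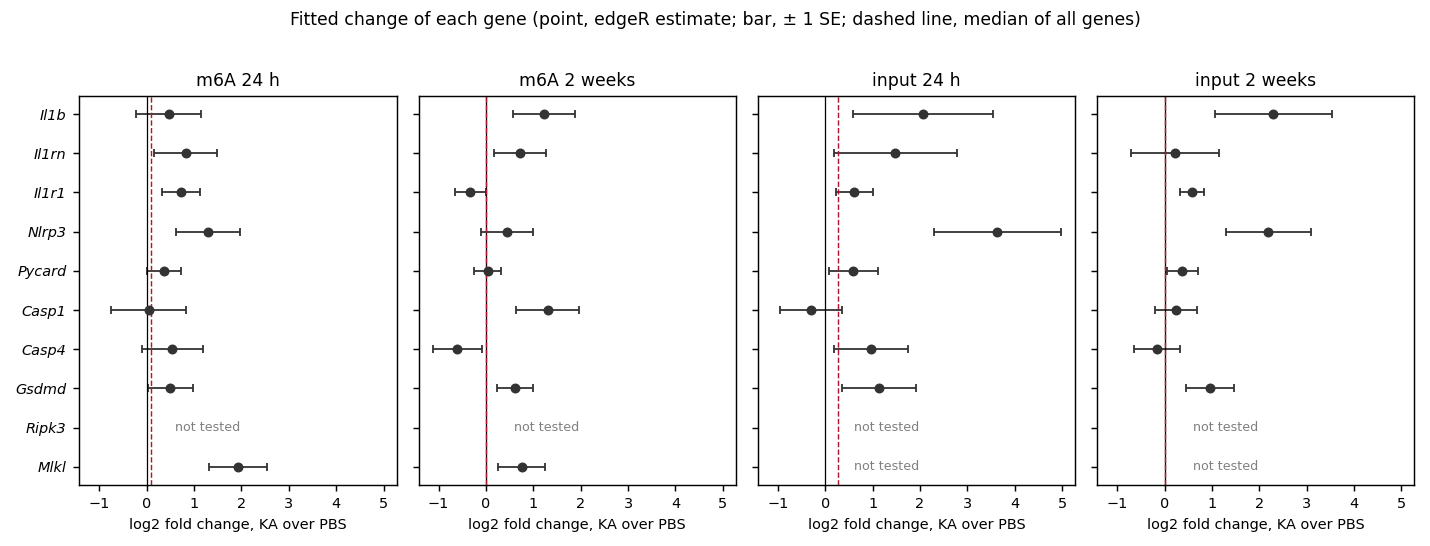
Fitted log2 fold change of KA over PBS (horizontal axis) for each gene in the 4 comparisons. Points are edgeR estimates, bars are ± 1 SE, and the dashed line is the median of all genes tested. No adjusted p was below 0.05. The values of Nlrp3 in input libraries (3.63 and 2.19) rest on PBS libraries that held 1 to 3 counts of the gene each.

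**Figure D4:**
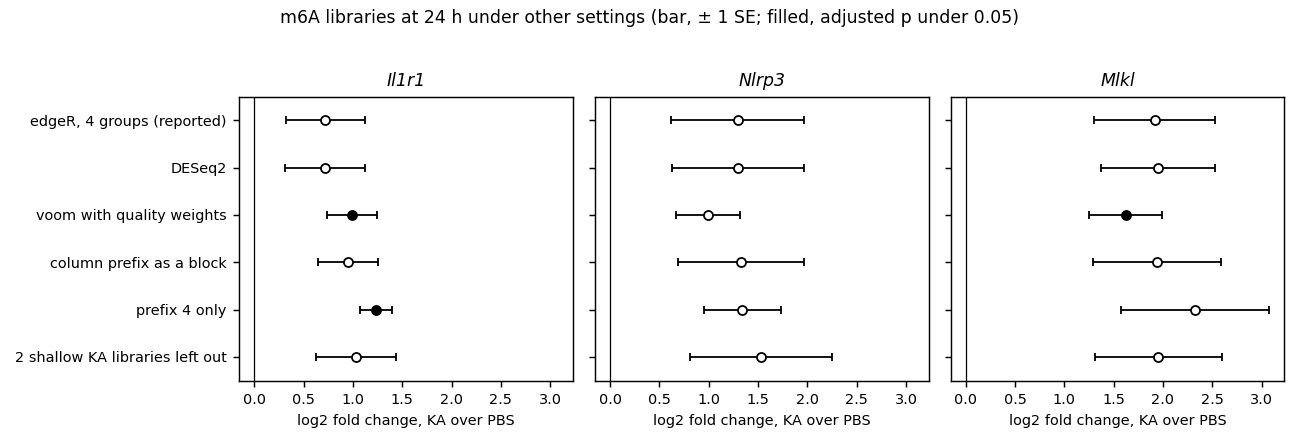
Log2 fold change of Il1r1, Nlrp3 and Mlkl in m6A libraries at 24 hours (horizontal axis) under 6 settings, with bars of ± 1 SE. Filled points have an adjusted p under 0.05, which holds for Il1r1 with voom (0.99) and within prefix 4 (1.24) and for Mlkl with voom (1.62). The 2 shallow KA libraries are those of mice 67 and 98.

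Counted over all 10 genes whatever their level, the mean CPM was higher in KA than in PBS mice for 8 in m6A libraries at 24 hours, for 7 in m6A libraries at 2 weeks, for 9 in input at 24 hours and for 8 in input at 2 weeks. Over all genes with a count the same was true of 69.4%, 55.5%, 57.7% and 52.4%. The exceptions were Casp1 and Ripk3 in m6A at 24 hours, Il1r1, Casp4 and Pycard in m6A at 2 weeks, Casp1 in input at 24 hours, and Casp4 and Ripk3 in input at 2 weeks.

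Whether the KA effect in m6A libraries differed between 24 hours and 2 weeks was tested as an interaction. No member passed, 0 had an unadjusted p under 0.05 (2.45% of all genes), and 0.00573% of all genes were called. DESeq2 and voom called 0 members too. The smallest p of a member was that of Il1r1, whose effect was 1.05 higher at 24 hours (SE 0.51, unadjusted p = 0.0535, adjusted p = 0.9998). The Mlkl effect was 1.16 higher at 24 hours (SE 0.78, unadjusted p = 0.15), so a larger response at 24 hours was not shown for either gene.

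The level in the m6A library over that in the input library of the same mouse measures relative m6A binding, because both are shares of their own library. At 2 weeks, where 9 mice had both, this ratio for Il1r1 ran from 0.516 to 1.17 in 6 KA mice (median 1) and was 0.765, 1.27 and 2.11 at the lowest, median and highest of 3 PBS mice. For Pycard it ran from 0.602 to 0.862 in KA mice and was 0.903, 3.13 and 0.961 in PBS mice 2, 3 and 4. The value of mouse 3 rests on 5 input counts. Of all genes with an input count in each of the 9 mice, 1.12% likewise had every KA ratio below every PBS ratio. For Casp1 it had a median of 1.72 in KA mice, and 2 of the PBS mice with a ratio above 0 gave 1.17 and 2.04.

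The interaction of treatment and library kind at 2 weeks tested these differences. It called 0% of the genes and no member with edgeR, while DESeq2 called 4 genes and voom 0, and no member among them. An unadjusted p under 0.05 was reached by Il1r1 alone among the members, and by 4.06% of all genes. The Il1r1 value was -0.93 (SE 0.42, edgeR adjusted p = 0.807). With the mouse as a replicate block the Il1r1 value was -0.45 (SE 0.36, adjusted p = 0.876). The block fit holds only the 9 mice with both libraries and so leaves out PBS mice 50 and 78. Its values thus differ from the others in the mice used as well as in the block. The Pycard value was -0.35 (SE 0.43), and -0.76 (SE 0.36, adjusted p = 0.875) with the block. A change of m6A binding was therefore not detected for any member that could be tested, and Il1b, Ripk3 and Mlkl were too low for this test. At 24 hours only 1 PBS mouse had both libraries, so no such comparison was made.

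**Figure D5:**
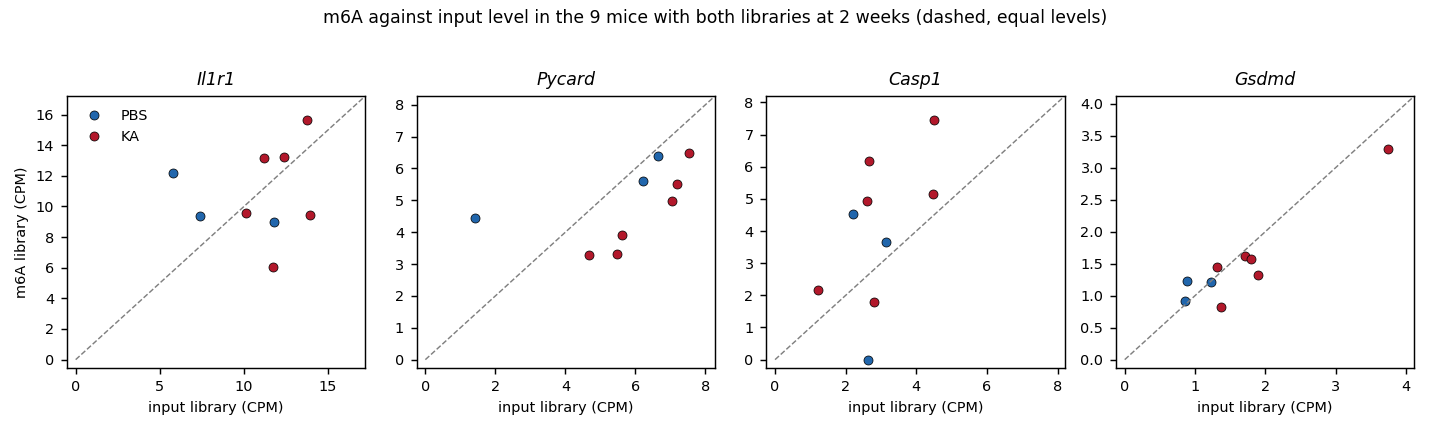
Level of Il1r1, Pycard, Casp1 and Gsdmd in the m6A library (vertical axis, CPM) against that in the input library (horizontal axis, CPM) of the 9 mice with both at 2 weeks, red for KA and blue for PBS. The dashed line marks equal levels. The 6 KA mice lie below the line for Pycard, where their ratios run from 0.602 to 0.862, as do PBS mice 2 and 4 (0.903 and 0.961). PBS mouse 3, at 3.13, held 5 input counts of Pycard.

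The members did not vary as a block from mouse to mouse. Over the 19 m6A libraries the correlation of each tested member with the mean of the 9 tested members, in which it is itself included, was 0.83 for Il1rn, 0.81 for Nlrp3, 0.80 for Il1b, 0.76 for Mlkl and 0.68 for Gsdmd, and fell to 0.53 for Pycard, 0.48 for Casp1, 0.29 for Il1r1 and 0.08 for Casp4. These are descriptions over libraries that share treatment, time and prefix. The genes outside the group that followed this mean most closely were Cd244 (0.87), Hcar2 (0.87), Map3k8 (0.86), Atf3 (0.86) and Igsf6 (0.86).

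Neighbouring genes of the same pathways were counted from 3 lists of textbook members that leave out the 10 genes. Of 19 genes of the IL-1 family and its signalling, 1 was called higher in m6A libraries at 24 hours, Il33 (1.67, SE 0.34, adjusted p = 0.0454), which encodes an alarmin of the IL-1 family. Of 17 inflammasome and pyroptosis genes tested, 1 was called higher there, Gbp2 (2.81, SE 0.54, adjusted p = 0.0335), an interferon-induced GTPase. Of 17 necroptosis genes 0 were called. An unadjusted p under 0.05 was reached by 2 of the 19 IL-1 genes, 5 of the 17 inflammasome genes and 5 of the 17 necroptosis genes, all higher in KA mice, beside 6.95% of all genes tested. No gene of the 3 lists was called lower in that comparison, and none was called in either direction in m6A at 2 weeks or in input at either time by edgeR. The calls at 24 hours depended on single mice of both groups. Of 31 genes called, leaving out any of the 3 PBS libraries gave 1 call in all, leaving out KA mouse 79 or KA mouse 97 gave 4, and leaving out KA mouse 67 gave 16.

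The medians of the 3 lists in m6A libraries at 24 hours were 0.37, 0.82 and 0.62, beside 0.09 for all genes tested. At 2 weeks they were 0.10, 0.08 and 0.30, beside 0.01. In input they were 0.56, 0.89 and 0.79 at 24 hours, beside 0.27, and 0.04, 0.49 and 0.21 at 2 weeks, beside 0.01.

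Markers of the cell types in these samples were followed as well. None of 10 microglial markers was called in any comparison. Their summed level in m6A libraries was 214.3 to 401.4 CPM in KA and 250.7 to 320.7 CPM in PBS mice at 24 hours, and 261.3 to 612.9 CPM in KA and 197.9 to 303.4 CPM in PBS mice at 2 weeks. In input at 2 weeks it was 226 to 475.1 CPM in KA and 160.8 to 245.4 CPM in PBS mice. Of these markers 5 were higher in KA mice at 2 weeks in m6A libraries at an unadjusted p under 0.05 (4.07% of all genes). In input at 2 weeks 3 were (8.16%). At 24 hours, in m6A libraries, 2 of them were lower in KA mice at an unadjusted p under 0.05 (6.95% of all genes). These were P2ry12 (-1.29, adjusted p = 0.215) and Siglech (-0.82, adjusted p = 0.469), which were named after their values were seen. Most of the list went the other way, with 7 of the 10 markers above 0 and a median of 0.05, beside 0.09 for all genes. The part of microglia in the members' values was not tested.

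No marker of astrocytes, endothelial cells, blood or oligodendrocytes was called in any comparison. The sum of the 6 astrocyte markers at 2 weeks was 2219 to 7057 CPM in KA and 1968 to 3843 CPM in PBS mice in m6A libraries, and 3116 to 7260 CPM in KA and 2015 to 4229 CPM in PBS mice in input. Of these, Gfap, an intermediate filament of astrocytes, was at 1.88 (adjusted p = 0.949) in m6A and 2.48 (adjusted p = 0.544) in input, an unadjusted p under 0.05 in both, and was named after its values were seen. In input at 24 hours 3 of 7 endothelial markers and 2 of 5 blood markers had an unadjusted p under 0.05 and were higher in KA mice (9.23% of all genes). That comparison rests on 1 PBS mouse. The endothelial sum was 878.8, 463.5 and 1214 CPM in KA mice 67, 98 and 8, and 906.5 CPM in PBS mouse 1. The blood sum was 18, 11.8 and 38.7 CPM in the same KA mice and 7.72 CPM in the PBS mouse. The part of these cell types in the members' values was not tested.

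The monocyte and neutrophil markers, high in mouse 8, lay between 16.8 and 50.4 CPM in all libraries at 2 weeks, and Ly6g, which marks neutrophils, had no count in any input library at that time. The sum of 7 hippocampal neuron markers was 1166 to 4829 CPM in m6A and 1291 to 3455 CPM in input libraries. That of 6 choroid plexus markers ran from 28.5 to 2349 CPM in m6A libraries, a wide spread between mice of all groups.

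The starts of these genes were searched for sequence that the choice of members did not use. RefSeq promoter sequences (GRCm38.p6) were found for 9 of the members, 14 starts in all, and the consensus of NF-kB, the factor downstream of IL-1R1, was looked for on both strands in the 250 bases before each start. It was present before 4 of the 14 starts, of Casp4, Il1r1 and Nlrp3, and before 3.9% of all 32851 promoters. The Casp4 starts with a match lie close together and share the same stretch of sequence, which was thus counted more than once. An interferon-stimulated response element, searched in the same way, was in 2.98% of all promoters and in no member's. The matches are shown with the consensus in capitals and with up to 20 bases on each side, on the strand of the gene. They describe these letters only, and no binding was measured.
Nlrp3, chr11:59541363-59541412, plus strand: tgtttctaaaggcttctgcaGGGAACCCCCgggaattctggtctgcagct
Casp4, chr9:5308736-5308785, plus strand: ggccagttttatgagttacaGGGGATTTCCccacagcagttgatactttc
Il1r1, chr1:40266336-40266383, plus strand: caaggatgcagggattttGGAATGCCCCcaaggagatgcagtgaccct

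The core of the m6A consensus, GGACT, was counted in the canonical transcript of each gene (GENCODE vM39, sense strand only). It occurred 8 times in Il1r1 and in Nlrp3, 7 times in Mlkl, 5 times in Pycard, 4 times in Ripk3, 2 times in Il1b, once in Casp1, Casp4 and Gsdmd, and not at all in Il1rn. The Pycard transcript used has 4122 bases, more than the span of the gene in GRCm38 (chromosome 7, 127991373 to 127993867). Its count thus covers sequence beyond that span and may not be that of the usual Pycard transcript. Per kilobase the members ran from 0 to 2.11 for Ripk3, beside a median of 1.01 over 21770 canonical transcripts. Il1rn was nevertheless measured in every m6A library, at 0.608 CPM or more.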

How the data were processed

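The authors deposited raw counts of reads per gene symbol, without normalization, for 4 sequencing lanes of each library. The library kit was a stranded total RNA kit per the labels, the submitters' processing notes name the build mm10, and for the aligner and counter the sources used here give no name. Lanes were summed here, 140 columns to 35 libraries. Another 8 columns matched no labelled sample and were not used. The column names of 8 libraries give the assay. For the other 27 a numeric prefix (3, 4 or 5) was read as m6A and its absence as input. Total counts per library set the precision. The 3 input libraries under 100000 counts were left out, and with no count up to 3 counts remain possible, which covers counting error only.

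Each kind of library was fitted with all 4 groups in edgeR 4.0.16 (TMM scaling, filterByExpr by group, robust quasi-likelihood F test, two-sided, Benjamini-Hochberg over all genes, threshold 0.05) in R 4.3.3. SE is the absolute log2 fold change over the square root of F. The script was tested on simulated data. Alternatives were voom with quality weights per sample (limma 3.58.1), DESeq2 1.42.0, other scaling, filters and groups, the library set (prefix or deposited table) as a block or restriction, a replicate block of mice, and the omission of 1 library at a time. Leaving out the 2 m6A libraries under 2000000 counts, and the restriction of input to 1 table, were chosen after seeing the data.

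The mouse numbers were taken as pairs, since per the labels the m6A and the input library of a number are from 1 animal. Over the 9 pairs at 2 weeks the correlation of deviations from the group means ran from -0.03 to 0.50. Correlations with the mean of the members were of log2 CPM (prior count 2). The text names all 10 members, up to 3 called genes per pathway list and the 5 genes most like the members' mean. Members and lists were chosen with earlier results of these data known. Plots used Python 3.11.15 and matplotlib 3.10.9.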

Additional observations from a re-analysis of the deposited data

Results flagged for a closer look

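Of 40 groups of 5 or 6 libraries examined for a single distant value, 6 held one. The rule flags about 1 in 20 groups when values are normally distributed. Levels from low counts need not be, and groups that share libraries are not independent, so the 6 are not shown to be an excess. Of these 6, 4 were from KA mouse 42 at 2 weeks. Its m6A library held the lowest Il1b level of its group, 0.174 CPM beside 0.361 to 0.458 CPM in the other 5 mice. The same library held the highest Nlrp3 level, 2.72 CPM beside 0.301 to 1.13 CPM, and the highest Gsdmd level, 3.3 CPM beside 0.819 to 1.62 CPM. Gsdmd was also highest in the input library of this mouse, at 3.75 CPM beside 1.31 to 1.89 CPM. Mouse 42 also had the highest sums of its group for microglial markers (612.9 CPM in m6A, 475.1 CPM in input) and for astrocyte markers (7057 and 7260 CPM), and their part in these values was not tested. Il1rn was far above its group in the m6A library of KA mouse 67 at 24 hours, at 33.3 CPM beside 1.82 to 7.79 CPM. Casp4 was far above its group in the m6A library of PBS mouse 4 at 2 weeks, at 35.4 CPM beside 3.46 to 10.2 CPM.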

How the results depend on the processing

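Of 938 values of the members under other settings, 884 kept their direction and their side of the threshold (among them values of DESeq2 with no adjusted p, 10 in all, for which only the direction could be compared), 3 passed it (Il1r1 and Mlkl with voom, Il1r1 within prefix 4, all in m6A at 24 hours), 0 were lost and 51 changed sign. None of the values that changed sign had passed the test. The members called in m6A at 24 hours were 2 with voom and 1 within prefix 4, and 0 under every other setting run and in every other comparison, except that DESeq2 gave no member an adjusted p in input at 2 weeks. All genes called in m6A at 24 hours were 1360 of 17440 with voom and 356 of 16903 within prefix 4.

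With voom, in m6A at 24 hours, Il1b was -0.56, Il1rn -0.77, Casp4 -0.16 and Gsdmd -0.051. At 2 weeks Il1r1 was 0.054 and Casp4 0.16, the difference between times was -1.27 for Il1rn and -0.32 for Casp4, and that between m6A and input was 0.094 for Casp4. With the library set as a block, in m6A at 24 hours, Il1rn was -0.12 and Casp1 -0.037. In m6A at 2 weeks Il1r1 was 0.24, Il1rn -0.03 and Pycard -0.13, and in input at 2 weeks Il1rn was -0.29 and Casp1 -0.37. The difference between times was -0.086 for Il1rn. Within 1 library set, in m6A, Il1b was -0.11, Il1rn -0.52 and Casp4 -0.003 at 24 hours, and Il1r1 was 0.30 and Pycard -0.36 at 2 weeks. With library size in place of TMM, Casp1 was -0.013 at 24 hours and Pycard -0.015 at 2 weeks in m6A, and with no filter Casp1 was -0.019 at 24 hours.

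Leaving out each library in turn moved signs as follows. In m6A at 24 hours Il1rn ran from -0.087 to 1.38, Casp1 from -0.48 to 0.78 and Casp4 from -0.093 to 0.81. In m6A at 2 weeks Casp4 ran from -0.84 to 0.33, Nlrp3 from -0.089 to 0.85 and Pycard from -0.074 to 0.17. For input at 2 weeks Il1rn ran from -0.033 to 0.54 and Casp4 from -0.37 to 0.22. The difference between times ran from -1.12 to 0.39 for Il1b, from -0.79 to 0.68 for Il1rn and from -0.37 to 0.18 for Gsdmd. The difference between m6A and input ran from -0.81 to 0.49 for Casp4 and from -0.69 to 0.044 for Pycard.

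The number of genes called depended on the tool. In m6A at 24 hours it was 31, and 202 with DESeq2, 1360 with voom, 65 with the library set as a block, 1 with only the 2 groups compared, 356 within prefix 4, 66 without libraries under 2000000 counts, and 1 to 34 with each library left out. In m6A at 2 weeks it was 1, and 13 with DESeq2, 0 with library size, 2 with no filter, 2 with the block, 0 with only the 2 groups, 0 within prefix 5 and 0 to 2 with each library left out. In input at 24 hours it was 0, and 197 with DESeq2, 1057 with voom, 1 with library size, 3 with no filter, 2 with the block, 8 with the shallow libraries added, and 1 to 180 with each library left out, the most without KA mouse 8. In input at 2 weeks it was 0, and 44 with DESeq2, 94 with voom, 2 with no filter and 0 to 1 with each library left out. For the difference between times it was 1, and 5 with DESeq2, 62 with voom and 2 with the block. For the difference between m6A and input it was 0, and 4 with DESeq2 and 1 with the mouse as a replicate block. The replicate block changed no other call. Where the numbers of calls differed between tools the cause was not tested. Depth limits Il1b, Nlrp3, Ripk3 and Mlkl most, whose input libraries often held under 10 counts.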
